A study of Mus musculus with 9 samples.

Results

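Claudins and the other genes of the tight junction were followed in Hepa1-6 cells, a mouse hepatoma cell line, after treatment with lefamulin or tiamulin. Both drugs are pleuromutilins, antibiotics that act on the bacterial ribosome, the former used in people and the latter in animals. The genes were chosen by symbol among protein-coding genes: every Cldn gene, the MARVEL proteins Ocln, Marveld2 and Marveld3, the immunoglobulin-like junction proteins F11r, Jam2, Jam3, Esam and Cxadr, scaffold proteins such as Tjp1, Tjp3, Cgn and Cgnl1, and the polarity proteins Pard3 and Pard6b. This gave 46 genes of the 56748 in the deposited count table, 31 of them claudins. The 3 groups had 3 RNA-Seq libraries each. They were control cells, cells given 37 µg/mL lefamulin and cells given 37 µg/mL tiamulin, with a treatment time of 2 days according to the labels. The labels describe the controls as untreated and the methods describe them as vehicle-treated. No label says whether the libraries of a group came from separate cultures, so the p values measure the spread between these libraries, which may be technical.

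A tight junction seals the space between neighbouring epithelial cells and separates their apical from their basolateral membrane. Claudins are membrane proteins that polymerize into its strands, and the mixture of claudins in a cell sets which ions and molecules pass between cells. Occludin and tricellulin add to the strands, ZO proteins and cingulins tie them to actin, and the Par complex places the junction along the cell border. In liver, tight junctions between hepatocytes close the bile canaliculi off from blood.

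Total counts on genes lay between 15568887 and 18008105 per library. Tiamulin 2 stood apart from the rest. A chi-square test of its counts against tiamulin 1 and tiamulin 3 gave 18.1 and 20.6 per degree of freedom, where other pairs within a group gave 2.88 to 7.57. Across 10313 genes its deviations from the group mean had a Spearman correlation with GC content of 0.69, against -0.53 in tiamulin 1 and -0.58 in tiamulin 3, and 0.49 and -0.49 in controls 1 and 2. For the junction genes, results are therefore given with and without tiamulin 2 where it changed a call. Of the hepatocyte markers, Alb, Afp and Trf were well read, with at least 5596 counts in every library, while Serpina1a had no read in any library, Ttr had at most 2 and Apoa1 at most 6.

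The promoter sequences of 3 genes are shown because 2 of them, Cldn4 and Cldn3, are neighbours that rose under tiamulin, and the other, Tjp1, fell under both drugs. They come from RefSeq on GRCm38.p6, 250 bases before to 50 bases after the start, at chr5:134946885-134947184 (minus strand) for Cldn4, chr5:134985964-134986263 (plus strand) for Cldn3 and chr7:65371195-65371494 (minus strand) for Tjp1. Capitals mark the E-box CAGGTG and the CACCC box, searched on both strands (CACCTG and GGGTG on the other), and no E-box overlapped a CACCC box in these windows. The motifs are those usually named for factors of the Snail and Zeb families and of the Klf family.

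Cldn4: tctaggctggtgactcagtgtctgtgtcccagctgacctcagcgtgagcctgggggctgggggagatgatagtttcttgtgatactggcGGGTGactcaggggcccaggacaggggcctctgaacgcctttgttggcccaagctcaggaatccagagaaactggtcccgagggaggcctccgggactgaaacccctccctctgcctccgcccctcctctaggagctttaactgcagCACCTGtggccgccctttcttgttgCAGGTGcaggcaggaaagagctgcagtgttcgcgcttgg
Cldn3: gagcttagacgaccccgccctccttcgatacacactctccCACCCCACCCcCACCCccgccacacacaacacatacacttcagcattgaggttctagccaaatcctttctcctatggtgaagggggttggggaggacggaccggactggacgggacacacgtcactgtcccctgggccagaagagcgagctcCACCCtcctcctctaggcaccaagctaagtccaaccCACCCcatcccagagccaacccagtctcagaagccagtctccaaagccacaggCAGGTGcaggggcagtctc
Tjp1: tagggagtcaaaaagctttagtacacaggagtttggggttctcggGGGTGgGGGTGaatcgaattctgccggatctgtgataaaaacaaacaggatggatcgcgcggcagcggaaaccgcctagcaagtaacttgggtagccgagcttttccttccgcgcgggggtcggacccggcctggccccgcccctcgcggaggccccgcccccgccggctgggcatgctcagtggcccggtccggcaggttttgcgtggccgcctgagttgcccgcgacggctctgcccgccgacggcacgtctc

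The Cldn4 window held 2 E-boxes and 1 CACCC box, the Cldn3 window 1 E-box and 5 CACCC boxes, and the Tjp1 window 2 CACCC boxes and no E-box. The E-box occurred in 20.2% of all 32851 promoters of this length and in 15 of the 44 promoters (34.1%) found for 32 of the 46 genes. The CACCC box occurred in 57.5% of all promoters and in 23 of the 44 (52.3%). These matches describe the letters only. CpG dinucleotides numbered 9 in the Cldn4 window, 9 in the Cldn3 window and 31 in the Tjp1 window, against a median of 7 over all promoters.

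Hepa1-6 cells transcribed few claudins. Of the 31 claudins, 13 had no read in any library, among them Cldn5, the claudin of endothelium, Cldn16, of the renal thick limb, and Cldn8 and Cldn17. A further 10 claudins had reads but stayed below the filter on low counts, with at most 13 counts in any library. Of the 46 genes, 14 were read more than 100 times in every library, and the claudins among them were Cldn4, Cldn3, Cldn12 and Cldn2. On the FPKM scale, which divides by gene length, the control level was highest for F11r (52.9 ± 2.13, SD, n = 3), followed by Tjp1 (49.5 ± 1.25), Cldn3 (38.4 ± 4.83) and Cldn4 (36.5 ± 1.36). F11r lay above Tjp1 in every control library, while Cldn3 and Cldn4 did not differ beyond their spread. Cxadr and Cgn were at 25.3 and 24.9 FPKM, and Cldn12 stood at 11.6, Cldn2 at 5.92 and Marveld2, the gene of tricellulin, at 3.92.

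Several genes that define epithelial junctions were near 0. Ocln, the gene of occludin, had counts of 0, 5 and 1 (controls), 1, 4 and 4 (lefamulin) and 2, 1 and 9 (tiamulin). Marveld3 had at most 10 counts, Cldn7 at most 4, Jam2 at most 4, Jam3 at most 6 and Tjp3, the gene of ZO-3, at most 5. Cldn1, which together with occludin is a usual component of hepatocyte junctions, had between 13 and 16 counts in the controls. The plot of counts by gene shows the gap between the well-read genes and the rest.

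**Figure D1:**
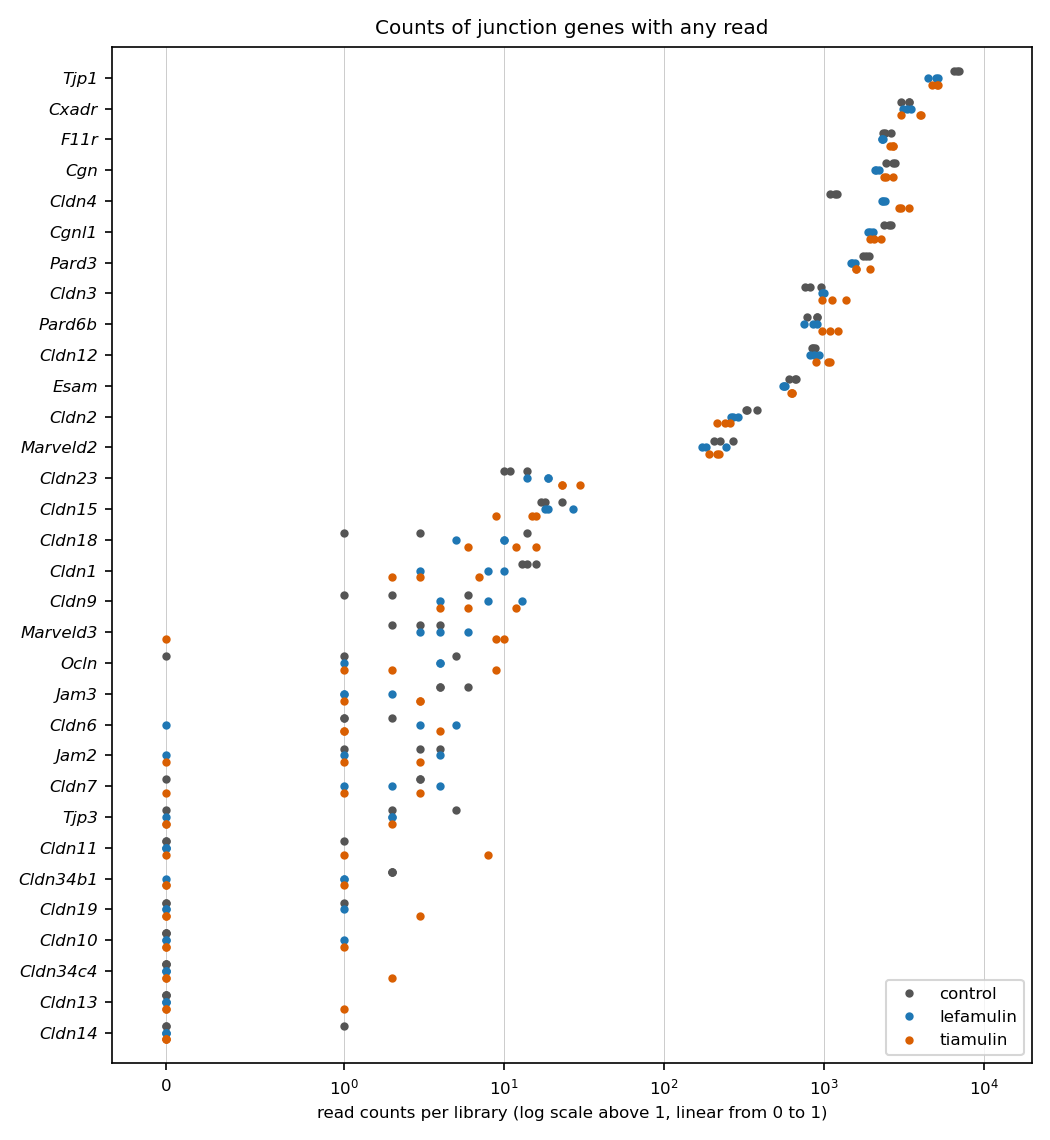
Read counts in each of the 9 libraries (horizontal axis, log scale above 1 and linear from 0 to 1) for 32 genes with any read, ordered by total count. The 13 upper genes were read more than 100 times in every library, while Ocln stayed at or below 9 counts and the 13 claudins without a read are not drawn.

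After the filter, 18 of the 46 genes were tested, among them 8 claudins. Under lefamulin 3 of the 18 (16.7%) had an adjusted p below 0.05, with Cldn4 raised and Tjp1 and Cgnl1 lowered. Over all 14510 tested genes the share was 13.1%, so the share among the junction genes was near the background. Under tiamulin 9 of the 18 (50%) did, against 16.4% of all tested genes, with Cldn4, Cldn3, Cldn12, Cldn23, F11r and Pard6b raised and Cldn2, Cldn1 and Tjp1 lowered. Requiring also an absolute log2(fold change) above 1, the threshold for DEGs, left Cldn4 under lefamulin, where 1.51% of all tested genes passed. It left Cldn4, Cldn23 and Cldn1 under tiamulin, where 1.78% passed. Cldn1 is in these tiamulin counts but passed the filter on low counts through its controls, where it was high. The median log2(fold change) of the 18 genes was -0.03 under lefamulin and 0.03 under tiamulin, and it was -0.0018 and 0.0034 over all tested genes.

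The drugs were compared with the same control libraries. The libraries of the groups did not overlap in normalized CPM for 12 of the 18 genes under lefamulin, 5 higher and 7 lower, where 37.6% of all tested genes did not overlap. Under tiamulin they did not overlap for 10 genes, 6 higher and 4 lower, against 32.3% of all tested genes. Leaving out tiamulin 2, which also changes the shared estimate of the spread, gave 7 calls under lefamulin and 10 under tiamulin among 19 tested junction genes, where 24.9% and 23.1% of all tested genes were called. The plot of fold changes shows tested genes side by side.

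**Figure D2:**
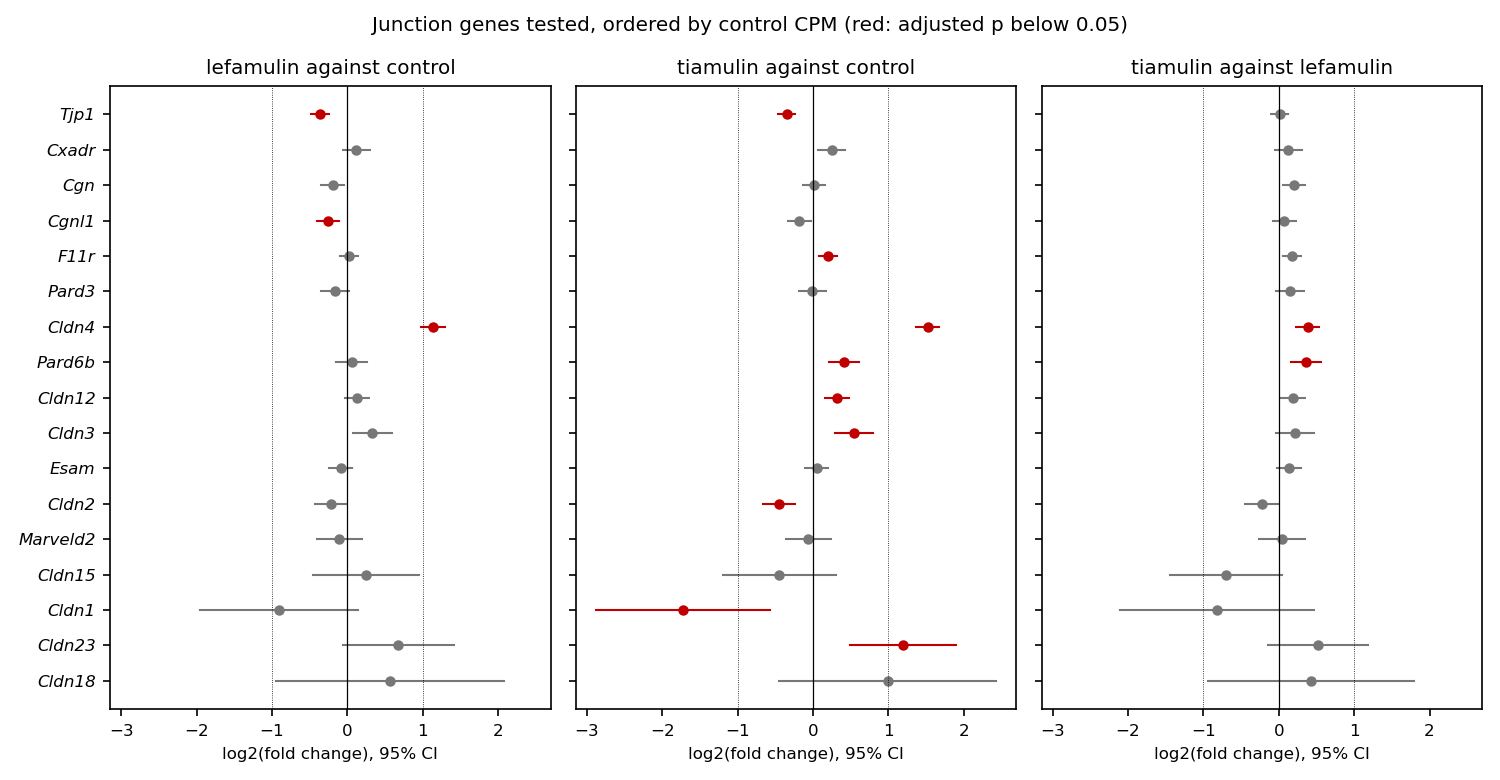
Log2(fold change) with its 95% confidence interval for 17 tested genes in the 3 comparisons, ordered by their control CPM, with genes of adjusted p below 0.05 in red and dotted lines at the fold-change threshold. Cldn4 stands at 1.13 under lefamulin and 1.52 under tiamulin, and Tjp1 lies at -0.36 and -0.35.

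Cldn4 passed both thresholds under both drugs. It encodes a claudin that tightens the barrier in many epithelia, and it lies on chromosome 5 (ENSMUSG00000047501, 134973973 to 134975788 on the minus strand in the authors' positions, which are not those of GRCm38). Its counts of 1181, 1094 and 1215 in control libraries compared with 2324, 2356 and 2403 after lefamulin and with 3020, 3422 and 2969 after tiamulin. The 3 groups did not overlap, with tiamulin above lefamulin and lefamulin above control. The fold change was 2.19 under lefamulin (95% CI 1.96 to 2.45, log2 1.13 ± 0.07 SE, edgeR quasi-likelihood adjusted p = 2.69e-07). Under tiamulin it was 2.87 (95% CI 2.57 to 3.20, log2 1.52 ± 0.07 SE, edgeR adjusted p = 1.46e-08). Without tiamulin 2, the highest library, the log2(fold change) under tiamulin was 1.43.

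Cldn3, a barrier-forming claudin that neighbours Cldn4, starts 39280 bases beyond it on the plus strand of chromosome 5 (ENSMUSG00000070473, 135015068 to 135016326). It had counts of 963, 766 and 816 (controls), 985, 999 and 979 (lefamulin) and 978, 1383 and 1133 (tiamulin). In normalized CPM, which corrects for library size, every treated library was above every control. It rose under tiamulin (log2 0.54 ± 0.12 SE, edgeR adjusted p = 0.00644). The log2(fold change) under lefamulin was 0.33 ± 0.12 (SE) with an edgeR adjusted p of 0.0886, and without tiamulin 2 the lefamulin call was made (adjusted p = 0.00151) at the same size. The tiamulin value fell to 0.38 without tiamulin 2 and was still called (edgeR adjusted p = 0.00103). The third claudin of this cluster, Cldn13, on the other side of Cldn4, had 1 read in all 9 libraries together.

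The transcript of Cldn3 has a GC content of 62.7% and that of Cldn4 56.8%, above the upper quartile of tested genes (54.0%), and tiamulin 2 was the highest library for both. In normalized CPM control 1, whose deviations also rose with GC content, was the highest control for both. For Cldn4 the margin was small, at 68.2 against 67.9 in control 3. When the fit carried GC and length offsets, Cldn4 and Cldn3 rose under both drugs. The log2(fold change) of Cldn3 was then 0.39 under lefamulin and 0.55 under tiamulin.

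Cldn12, a claudin linked to calcium passage, had counts of 855, 881 and 850 (controls), 817, 929 and 874 (lefamulin) and 1070, 892 and 1090 (tiamulin). In normalized CPM the lowest tiamulin library, tiamulin 2 at 55.7, lay above the highest control at 51.3. It rose under tiamulin (log2 0.32 ± 0.08 SE, edgeR adjusted p = 0.00911), a call lost without control 3 (log2 0.29, adjusted p = 0.0556). Under lefamulin the log2(fold change) was 0.13 (edgeR adjusted p = 0.302).

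Cldn23, a claudin of the intestinal and other epithelia, was read rarely, with counts of 11, 14 and 10 (controls), 19, 14 and 19 (lefamulin) and 30, 23 and 23 (tiamulin). Every tiamulin library was above every lefamulin library and every control. It rose under tiamulin (fold change 2.29, 95% CI 1.41 to 3.72, edgeR adjusted p = 0.0219). Without control 1, control 3 or tiamulin 1 the call was lost, with an adjusted p between 0.0720 and 0.0974. Under lefamulin the log2(fold change) was 0.68 ± 0.34 (SE, edgeR adjusted p = 0.223).

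Cldn2 and Cldn1 went the other way. Cldn2 forms channels for cations and water, and is thus a pore-forming rather than a sealing claudin. It had counts of 332, 325 and 380 (controls), 263, 291 and 269 (lefamulin) and 214, 242 and 260 (tiamulin). No treated library reached the lowest control. It fell under tiamulin (log2 -0.45 ± 0.10 SE, edgeR adjusted p = 0.00620) and stood at -0.22 ± 0.10 (log2, SE) under lefamulin, with an edgeR adjusted p of 0.155.

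Cldn1, a sealing claudin required for the skin barrier, had counts of 13, 14 and 16 (controls), 8, 10 and 3 (lefamulin) and 7, 2 and 3 (tiamulin). In normalized CPM all treated libraries were below all controls. Cldn1 passed the filter on low counts through its controls, where it was high. A fit of the 2 drug groups alone left it out. Its test against control is therefore not independent of the filter. Cldn1 fell under tiamulin (log2 -1.73 ± 0.54 SE, edgeR adjusted p = 0.0414). This call was lost on leaving out any of control 1, 2 or 3, lefamulin 1 or 2, or tiamulin 2 or 3, with an adjusted p between 0.0549 and 0.125 and a log2(fold change) between -1.78 and -1.43. The lefamulin value was -0.91 ± 0.49 (SE, edgeR adjusted p = 0.251).

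The remaining tested claudins were Cldn15, which forms sodium channels in gut, and Cldn18, of stomach and lung. Cldn15 had counts of 23, 17 and 18 (controls), 18, 19 and 27 (lefamulin) and 9, 15 and 16 (tiamulin). Cldn18 had counts of 14, 1 and 3 (controls), 5, 10 and 10 (lefamulin) and 12, 16 and 6 (tiamulin). In normalized CPM the tiamulin libraries of Cldn15 were below all controls, and the groups of Cldn18 overlapped. Neither gene passed under either drug. Control 1 set the Cldn18 value, since without it the log2(fold change) under tiamulin was 2.52 (edgeR adjusted p = 0.0470) in place of 0.99 (adjusted p = 0.357). Of the 8 tested claudins, 1 passed under lefamulin, raised, and 6 passed under tiamulin, 4 raised and 2 lowered. These are 12.5% and 75% of the tested claudins, against 13.1% and 16.4% of all tested genes. The 75% includes Cldn1, which passed the filter through its controls.

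Cldn4 made up a larger share of claudin mRNA in every treated library than in any control. Summed over the 31 claudins, FPKM ranged from 89.5 to 100 in control libraries, from 145 to 150 with lefamulin and from 168 to 206 with tiamulin. Cldn4 made up 38.9% ± 1.60 (SD, n = 3) of this sum in the controls, 54.0% ± 0.52 under lefamulin and 57.7% ± 1.76 under tiamulin. The share of Cldn3 was 40.8%, 32.6% and 30.7% in the same order, while its own level was 38.4, 48.2 and 56.1 FPKM. The share of Cldn2 was 6.32% ± 0.59, 3.43% ± 0.16 and 2.40% ± 0.25, and its groups did not overlap. No test was made on the shares. The plot of claudin mRNA per library shows the sum and the mixture.

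**Figure D3:**
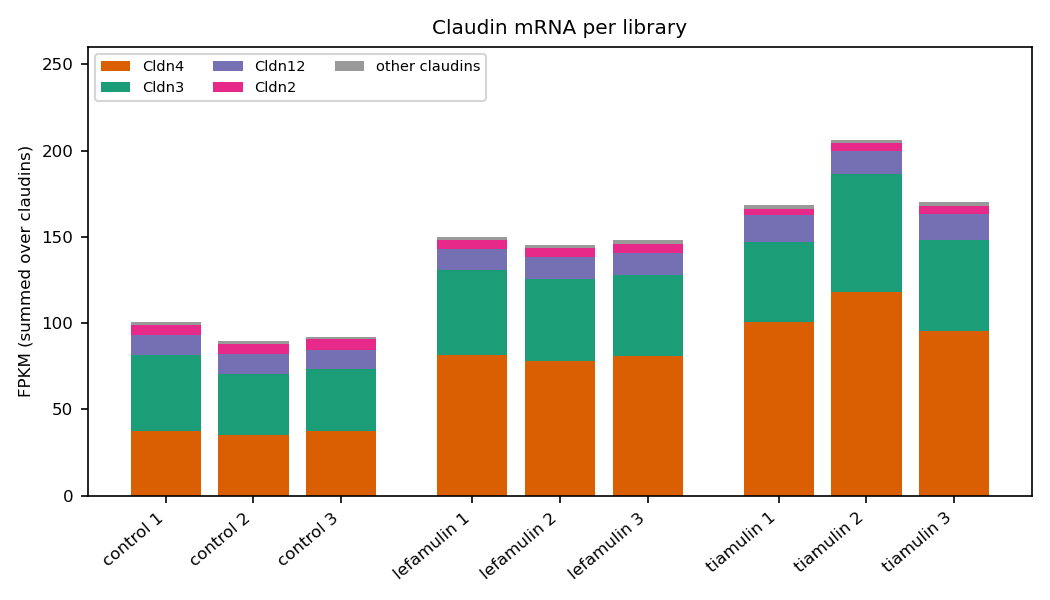
FPKM of the claudins stacked for each of the 9 libraries, with Cldn4, Cldn3, Cldn12, Cldn2 and the sum of all others. The sum is 89.5 to 100 in the controls, 145 to 150 under lefamulin and 168 to 206 under tiamulin, where tiamulin 2 is the highest, and most of the increase is Cldn4.

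Among the strand proteins of the MARVEL family only Marveld2, whose product tricellulin seals the corners where cells meet in threes, was tested. It had counts of 269, 205 and 224 (controls), 183, 246 and 173 (lefamulin) and 193, 215 and 222 (tiamulin). The groups overlapped. The log2(fold change) was -0.11 (95% CI -0.41 to 0.20) under lefamulin and -0.06 (95% CI -0.36 to 0.24) under tiamulin.

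Of the scaffold genes, Tjp1 fell under both drugs. It encodes ZO-1, which binds the tails of claudins and links them to actin (ENSMUSG00000030516, chromosome 7, 64945913 to 65177529, minus strand). It had counts of 6531, 6786 and 7042 (controls), 4455, 5171 and 5039 (lefamulin) and 5120, 4739 and 5201 (tiamulin). Both treated groups were below every control and overlapped each other. Tjp1 fell to 0.777 of control under lefamulin (95% CI 0.717 to 0.841, edgeR adjusted p = 0.000451) and to 0.784 under tiamulin (95% CI 0.724 to 0.849, edgeR adjusted p = 0.000460).

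Cgnl1, the gene of paracingulin, a relative of cingulin at the junction, had counts of 2544, 2374 and 2649 (controls), 1886, 1951 and 2041 (lefamulin) and 1946, 2267 and 2069 (tiamulin). In normalized CPM all lefamulin libraries were below all controls, and tiamulin 2 lay among the controls. It fell under lefamulin (log2 -0.25 ± 0.07 SE, edgeR adjusted p = 0.0278) and stood at -0.18 ± 0.07 (log2, SE, edgeR adjusted p = 0.0927) under tiamulin. The lefamulin call was lost without control 1, control 3 or any lefamulin library, with an adjusted p between 0.0619 and 0.124. Without tiamulin 2, Cgnl1 was called under tiamulin as well (log2 -0.27, adjusted p = 0.000361).

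Cgn, the gene of cingulin, passed under neither drug. It had counts of 2701, 2445 and 2783 (controls), 2105, 2103 and 2198 (lefamulin) and 2366, 2690 and 2456 (tiamulin). Its log2 value was -0.20 under lefamulin (edgeR adjusted p = 0.0784). In normalized CPM all its lefamulin libraries were below all controls. Without tiamulin 2 it was called as lower under lefamulin (edgeR adjusted p = 0.00258).

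Of 3 tested immunoglobulin-like genes, F11r passed, under tiamulin. It encodes JAM-A, an adhesion protein that recruits the Par complex, and had counts of 2420, 2348 and 2649 (controls), 2315, 2343 and 2299 (lefamulin) and 2588, 2689 and 2726 (tiamulin). In normalized CPM every tiamulin library was above every control, and the lefamulin libraries overlapped the controls. It rose 1.15-fold under tiamulin (95% CI 1.05 to 1.25, edgeR adjusted p = 0.0285), and was at 0.02 on the log2 scale under lefamulin (95% CI -0.10 to 0.14). The tiamulin call was lost without control 1, control 2, lefamulin 2 or tiamulin 3, with an adjusted p between 0.0514 and 0.119.

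Cxadr, the coxsackievirus and adenovirus receptor and a junction protein, had counts of 3026, 3400 and 3432 (controls), 3110, 3484 and 3333 (lefamulin) and 3984, 3033 and 4044 (tiamulin). Tiamulin 2 was again apart, here as the lowest of the tiamulin libraries. The Cxadr transcript has a GC content of 42.0%, below the lower quartile of 44.5%. The log2(fold change) under tiamulin was 0.25 ± 0.08 (SE, edgeR adjusted p = 0.0557), and 0.35 without tiamulin 2 (adjusted p = 5.19e-06). Cxadr overlaps Btg3 on the opposite strand, which had 19215 counts in all against its own 30846. Whether the counting used the strand is not given in the sources used here, so how reads from the shared stretch were counted is not known. Esam, an adhesion protein better known from endothelium, had counts of 663, 610 and 670 (controls), 559, 565 and 569 (lefamulin) and 631, 633 and 628 (tiamulin), and passed under neither drug.

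Of the polarity genes, Pard6b passed, under tiamulin. Pard6b, a Par6 protein that brings atypical protein kinase C to the junction, had counts of 913, 791 and 908 (controls), 754, 905 and 858 (lefamulin) and 969, 1219 and 1089 (tiamulin). Every tiamulin library was above every other library. It rose under tiamulin (log2 0.41 ± 0.09 SE, edgeR adjusted p = 0.00737) and had a log2(fold change) of 0.06 under lefamulin (95% CI -0.15 to 0.26). Pard3, the scaffold of the Par complex, had counts of 1911, 1765 and 1823 (controls), 1485, 1508 and 1558 (lefamulin) and 1600, 1938 and 1595 (tiamulin), and did not pass. Without tiamulin 2 it was called as lower under lefamulin (log2 -0.16, edgeR adjusted p = 0.0174).

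**Figure D4:**
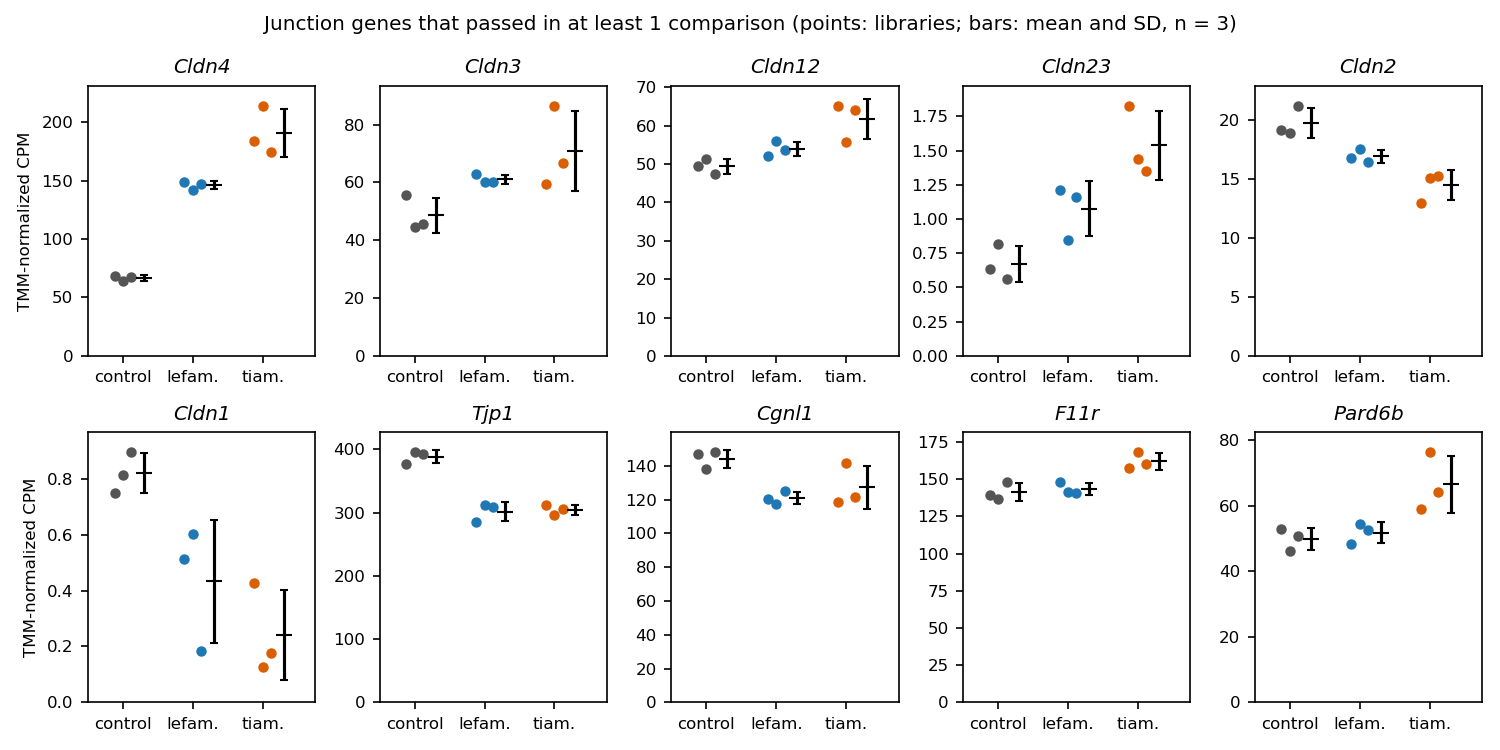
TMM-normalized CPM in each library (points) with mean and SD (bars, n = 3) for the 10 genes that passed in at least 1 comparison, each on its own axis from 0. Cldn4 rises from a mean of 66.6 in the controls to 146 and 191, Tjp1 falls from 388 to 302 and 305, and in Cldn3 and Pard6b tiamulin 2 is the highest point.

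Lefamulin and tiamulin share the pleuromutilin core and differ in the side chain at its ester, and they were given at the same concentration for the same time. Tested against each other, 2 of the 18 genes differed (11.1%), where 4.9% of all tested genes did, and 0 of the 18 also passed the fold-change threshold in edgeR, where 0.227% of all tested genes passed. DESeq2 and limma also gave 0, of 14 genes with an adjusted p in DESeq2 and of 14 in limma, or 33 without its filter. At an unadjusted p below 0.05 the edgeR test gave 6 of the 18, against 21.6% of all tested genes. Cldn4 was 1.31-fold higher under tiamulin than under lefamulin (95% CI 1.18 to 1.45, edgeR adjusted p = 0.00747), and this call was lost without lefamulin 2 (log2 0.37, adjusted p = 0.0588). Pard6b was 1.28-fold higher under tiamulin (95% CI 1.12 to 1.47, edgeR adjusted p = 0.0430). The Pard6b call was lost on leaving out any control or any lefamulin library, with an adjusted p between 0.0542 and 0.170.

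For the other genes the difference between the drugs did not pass in this edgeR test, while DESeq2 on the 9 libraries also called F11r. Tjp1 had a log2 difference of 0.01 (95% CI -0.10 to 0.13). Cldn3 had 0.22 (95% CI -0.04 to 0.47), Cldn12 0.19 (95% CI 0.03 to 0.35), Cldn2 -0.23 (95% CI -0.44 to -0.01) and F11r 0.18 (95% CI 0.06 to 0.30). The last 3 intervals leave out 0 but had edgeR adjusted p values of 0.152, 0.207 and 0.0873. The interval of Cgn also left out 0 (log2 0.21, 95% CI 0.06 to 0.35, edgeR adjusted p = 0.103). For Cldn23 and Cldn1 the intervals were wide, from -0.15 to 1.18 and from -2.10 to 0.47. The median log2 difference of the 18 genes was 0.14, against 0.0031 over all tested genes. Without tiamulin 2 the differences moved both ways, to 0.049 for Cldn3 and -0.011 for Cgnl1, and to 0.26 for Cldn12 and 0.23 for Cxadr. How far tiamulin 2 sets the median was not tested. Without tiamulin 2 the genes called were Cldn4, Pard6b, Cldn12 and Cxadr, where 8.79% of all tested genes were called.

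Partners of the junction proteins and the other gene groups below were read from separate lists, in which 51 genes were tested. Without tiamulin 2, 0 of their calls in the 3 comparisons were lost and 11 were gained. Of 23 tight junction partners and polarity genes, 19 were tested. Pals1 and Arhgef2 rose and Amot fell under lefamulin, and Pals1, Arhgef2, Amotl1 and Prkcz rose and Amot fell under tiamulin. Arhgef2 encodes GEF-H1, a guanine nucleotide exchange factor that cingulin holds at the junction. It had counts of 132, 78 and 104 (controls), 315, 336 and 312 (lefamulin) and 534, 687 and 568 (tiamulin), and no groups overlapped. Its log2(fold change) was 1.73 ± 0.16 (SE, edgeR adjusted p = 8.03e-06) under lefamulin and 2.60 ± 0.16 (SE, edgeR adjusted p = 1.02e-07) under tiamulin, and it was 0.87 ± 0.14 (SE) higher under tiamulin than under lefamulin (edgeR adjusted p = 0.00323).

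Of 12 adherens junction genes, which build the cadherin contacts beside the tight junction, 11 were tested. Under each drug Afdn, the gene of afadin, rose and Cdh2, the gene of N-cadherin, fell. Cdh1, the gene of E-cadherin, was not tested and had between 2 and 10 counts. Epcam, which binds claudins, was tested and did not pass.

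Of 10 transcription factors known to act on claudin genes, 7 were tested, while Snai2 and Ovol2 had no read. Klf4 and Zeb2 rose under both drugs, and Hnf4a fell under lefamulin. Klf4, a factor of epithelial differentiation, had counts of 677, 547 and 597 (controls), 1414, 1496 and 1509 (lefamulin) and 679, 883 and 713 (tiamulin). Every lefamulin library was above every tiamulin library. Whether Klf4 bears on Cldn4 was not tested. The log2(fold change) was 1.39 ± 0.11 (SE, edgeR adjusted p = 1.60e-06) under lefamulin and 0.41 ± 0.11 (SE, edgeR adjusted p = 0.0177) under tiamulin, and it was -0.98 ± 0.10 (SE) for tiamulin against lefamulin (edgeR adjusted p = 0.000159). The tiamulin call was lost without control 2 or control 3, with adjusted p values of 0.0875 and 0.0843.

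Markers of other cell types moved with the groups in part, and their part in the results on junction genes was not tested. In these bulk libraries, fewer cells of a kind and less RNA per cell cannot be told apart. Of 5 biliary markers, Krt7 rose and Spp1 fell under both drugs, Sox9 and Epcam did not pass, and the defining marker Krt19 had at most 5 counts. The summed FPKM of the biliary list was 335 to 347 in the controls, 282 to 289 under lefamulin and 263 to 276 under tiamulin. Of 7 endothelial markers, Pecam1 rose under lefamulin (log2 1.29) and tiamulin (log2 1.39), and Vwf rose under lefamulin (log2 1.56). They had at most 67 and 76 counts. Emcn had no read and Cdh5 at most 2. The sum was 0.288 to 0.336 FPKM in the controls, 0.690 to 0.778 under lefamulin and 0.618 to 0.880 under tiamulin.

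Of 6 hepatocyte markers, 3 were tested. Alb fell under both drugs, Afp fell under tiamulin and Trf rose under lefamulin. The summed FPKM was 627 to 699 in the controls, 614 to 660 under lefamulin and 474 to 505 under tiamulin. Of 6 blood markers, Ptprc rose (log2 2.45 under lefamulin and 2.12 under tiamulin) and Csf1r fell (log2 -1.33 and -1.32). They had at most 16 and 58 counts. Cd3e and Hbb-bs had no read, and the sum was 0.622 to 0.946, 0.657 to 1.27 and 0.714 to 0.839 FPKM. Of 5 fibroblast markers, Dcn fell under both drugs, and the sum was 252 to 266, 192 to 201 and 177 to 191 FPKM. This sum was almost all Dcn. Col1a1 had at most 12 counts and did not pass, Col1a2 and Pdgfrb had at most 2 and Col3a1 at most 1.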

How the data were processed

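The 9 RNA-Seq libraries fell into 3 groups of 3 by their sample labels. For 56748 genes the authors deposited raw counts of reads, not normalized. They also deposited FPKM values, made from the counts, the gene length and a library total. The submitters' processing notes list CASAVA 1.8, fastp, HISAT2 2.0.5, featureCounts 1.5.0-p3, DESeq2 1.20.0 and the build mm10. The strand setting is not given in the sources used here. Positions are the authors' and are not those of GRCm38, since 0 of the 46 genes had the same start and end there.

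Counts were filtered with filterByExpr and normalized with TMM, and the robust quasi-likelihood test of edgeR 4.0.16 (R 4.3.3) was run on all 9 libraries at once, without covariates beside the group. P values were adjusted with Benjamini-Hochberg over all 14510 tested genes, the threshold was 0.05, and intervals are at the 95% level. The test was tried on simulated data first. Total counts were 15568887 to 18008105 per library, and genes with few counts carry counting error.

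Genes of the list that passed were named with all values, other tested genes with values or ranges, untested genes by counts, and genes of further lists with values only if they also passed an absolute log2(fold change) of 1. Some members of the lists are counted but not reported here by name. The genes and lists were chosen with earlier results of these data known. Sensitivity was read from DESeq2 1.42.0 and its size factors, no filter, at least 10 counts in every library, fits of only 2 groups, a replicate block, limma 3.58.1 on log2(FPKM + 1) and log2(FPKM + 0.1), glmTreat, GC and length offsets, and leaving out each library. GC content came from GENCODE M21 transcripts.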

Additional observations from a re-analysis of the deposited data

Results flagged for a closer look

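The effects of the drugs differed, by the test of tiamulin against lefamulin in the same edgeR fit, for 2 of the 18 tested junction genes and for 5 of the 51 tested genes of the further lists, where 4.9% of all tested genes differed. Cldn4 was higher under tiamulin, by a log2(fold change) of 0.39, and so was Pard6b, by 0.36. Arhgef2 was higher under tiamulin by 0.87, and Amotl2, a relative of the junction partner Amot, by 0.50. Lower under tiamulin were Klf4, with a log2(fold change) of -0.98, and the hepatocyte markers Afp (-0.68) and Alb (-0.25). Amotl2, Afp and Alb fall outside the rule by which genes were named and were added after their values were seen.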

How the results depend on the processing

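Cldn4 under both drugs, Tjp1 under both drugs and Cldn2 under tiamulin were called in all 20 alternatives with a test of the gene against 0. Of 1098 gene values recomputed, 995 kept their direction and side of the threshold, 53 lost a call, 29 gained a call and 21 changed sign. None of the values that changed sign was called on either side. With GC and length offsets these were Cgn under tiamulin (-0.039), F11r under lefamulin (-0.0078), and, for tiamulin against lefamulin, Cgnl1 (-0.00097) and Tjp1 (-0.0017). With the replicate block added they were -0.039, -0.0074, -0.00083 and -0.00089.

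On leaving out a library in turn, 8 results changed sign at least once. Under lefamulin F11r ranged from -0.0046 to 0.051 and Marveld2 from -0.26 to 0.017. Under tiamulin Cgn ranged from -0.069 to 0.048, Marveld2 from -0.14 to 0.060 and Pard3 from -0.13 to 0.058. For tiamulin against lefamulin Cgnl1 ranged from -0.011 to 0.12, Marveld2 from -0.058 to 0.19 and Tjp1 from -0.026 to 0.038.

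The 3 genes called under lefamulin became 7 with those 2 groups alone, 6 with GC and length offsets, 5 with the replicate block added, and 2 to 7 on leaving out a library, with 7 without tiamulin 2. The 9 called under tiamulin became 4 with limma on log2(FPKM + 1) without a filter, and 6 to 10 on leaving out a library. They became 11 with GC and length offsets, and also 11 with the block added. The 3 past both thresholds under tiamulin became 1 with each limma fit and with glmTreat (Cldn1 and Cldn23 were below the FPKM filter and so not tested in the 2 filtered limma fits), and 1 to 3 on leaving out a library, with 1 without control 3. The 1 gene past both under lefamulin became 0 with glmTreat, which tests against the threshold itself. For tiamulin against lefamulin, 2 became 1 with the 2 groups alone, with the replicate block and with limma on filtered FPKM, 0 with limma without a filter, 6 with GC and length offsets, 4 with the block added, and 0 to 4 on leaving out a library, with 0 without lefamulin 2 and 4 without tiamulin 2. The cause was not tested.

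No label says whether the replicate numbers pair the samples. Same-numbered libraries had correlations of their deviations between -0.47 and 0.05, and libraries of other numbers between -0.41 and 0.48. The GC trends of the libraries enter these values, so they cannot show whether samples were paired. The replicate block alone left 2 calls under lefamulin and 7 under tiamulin. Cldn1 and Cldn23 had at most 16 and 30 counts in any library, and how depth bears on their calls was not tested.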
